A study of Mus musculus with 6 samples.

Results

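The oligoadenylate synthetase (OAS) family was examined in mouse colorectal tumours that grew in white adipose tissue or in non-adipose tissue. Its listed genes were Oas1a, Oas1b, Oas1c, Oas1g, Oas2, Oas3, Oasl1 and Oasl2, and 7 of these 8 had a value of their own among the 22180 genes measured. Oas1a had none, because its only probe set, the group of probes that gives 1 value, is shared with Oas1g. By the rule a gene with several probe sets is represented by its brightest, selected on mean signal in all 6 arrays. All 7 measured members had a single unshared probe set, so that choice had no effect here. The family itself was chosen by this same contrast: it was proposed with the lower interferon-stimulated genes of the white adipose tumours already known, so its differences between the sites are given as a description and support nothing further.

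The non-adipose group was 3 tumours grown from mouse colorectal cancer cells injected into non-adipose tissue, and the white adipose group was 3 tumours from such cells injected into white adipose tissue. Each tumour came from its own mouse and was taken at a size of 1 to 1.5 cm3, and each was hybridised to 1 Affymetrix whole-transcript array. The sources used here do not give the cell line, the strain, the age of the mice or the exact sites. Levels are log2 signals, so that a difference of 1 is a doubling of signal.

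OAS proteins sense double-stranded RNA, a sign of viral infection, and answer by linking ATP into short oligoadenylates. These act as a second messenger in the antiviral response. The genes are induced by interferons through factors that include STAT2 and IRF9, which bind the interferon-stimulated response element in promoters. In tumours, OAS genes are widely used as a readout of interferon signalling in cancer cells, stroma and infiltrating leukocytes.

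Promoter sequence is shown first, as it is not an array value. The matches are not independent of the choice of the family, which was proposed with the lower interferon-stimulated genes already known. RefSeq (GRCm38.p6) windows from 250 bases before to 50 after the transcription start were found for 6 of the 8 listed members. They were searched on both strands, overlapping matches included, for GAAA followed by any 2 bases and a second GAAA, the core of the response element. It occurred in the windows of 4 of these 6 genes, Oas1a, Oas1c, Oas1g and Oas3. Over all genes with a window the share was 3.99% (1079 of 27025), and over the other interferon-stimulated genes listed here it was 13 of 22. For the Oas1 paralogs outside the list that had a window, Oas1f and Oas1h, it was 0 of 2. The stretch below runs 5′ to 3′ on the gene's own strand and covers the 120 bases up to the start, with matches in capitals.
Oas1a, chr5:120907526-120907645, minus strand: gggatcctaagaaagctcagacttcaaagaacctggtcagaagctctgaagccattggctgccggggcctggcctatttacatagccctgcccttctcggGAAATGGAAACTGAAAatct
Oas1g, chr5:120887614-120887733, minus strand: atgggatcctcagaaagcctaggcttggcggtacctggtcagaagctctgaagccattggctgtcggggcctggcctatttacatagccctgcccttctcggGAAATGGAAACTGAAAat
Oas1c, chr5:120812515-120812634, minus strand: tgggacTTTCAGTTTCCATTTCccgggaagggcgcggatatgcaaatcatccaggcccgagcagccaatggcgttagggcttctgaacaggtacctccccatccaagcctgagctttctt
Oas3, chr5:120777660-120777779, minus strand: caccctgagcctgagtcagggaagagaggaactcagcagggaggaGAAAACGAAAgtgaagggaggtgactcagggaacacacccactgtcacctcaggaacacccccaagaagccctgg

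The Oas1a and Oas1g stretches were near copies, with 108 identical bases in 122 aligned columns. Each held 2 overlapping matches that together spell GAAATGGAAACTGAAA, ending 5 bases before the start of Oas1a and 3 bases before that of Oas1g. Oas1c carried the same 16 bases on the opposite strand. The longer motif, with 1 more GAAA after any 2 further bases, occurred in the windows of 0.133% of all genes (36 of 27025). Among the other interferon-stimulated genes it occurred in 4 of 22. Oas1b lies next to Oas1c in RefSeq, and its listed boundary falls inside the Oas1c window, and the match printed for Oas1c lies between the listed intervals of both genes. The Oas3 match lay 66 to 75 bases before the start. No match was present in the windows of Oasl1 and Oasl2. Windows of Oas2 and Oas1b were not used here. A match is a string of letters in a window and was not measured as a binding site.

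Before the members' values, the arrays themselves need a description. Array medians lay between 5.66 and 5.69 and arrays correlated across genes at 0.983 to 0.995. White adipose replicate 1 stood apart in skin genes: its keratinocyte marker list (7 of 8 markers measured) averaged 8.95, against 5.07 to 5.79 in the other 5 arrays. Non-adipose replicates 1 and 3 were high in skeletal muscle markers (8 of 8 measured), at 6.38 and 7.08 against 5.31 to 5.53 elsewhere. Adipocyte markers (9 of 10 measured) overlapped between the sites, at 5.56 to 5.63 in non-adipose and 5.42 to 5.88 in white adipose tumours, and Adipoq, the adipocyte hormone adiponectin, lay between 4.10 and 4.27 on all 6 arrays. Of the epithelial markers, the keratin genes Krt8 and Krt18 ranked high when all genes were sorted on mean signal (percentiles 96.1 and 94.9), whereas Epcam, Vil1 and the intestinal factor gene Cdx2 were dim (percentiles 29.1, 23.3 and 38.9). No detection calls were used here, so a dim value may be background.

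In 6 of the 7 measured members the signal was lower in the white adipose tumours, by 1.38-fold to 1.70-fold, and the seventh, Oas1c, differed by -0.0062 on the log2 scale. All 7 means were thus lower; among all genes 50.3% had a lower and 49.7% a higher mean. The lower members were the synthetase genes Oas1g, Oas2 and Oas3, the Oas1b gene and the OAS-like genes Oasl1 and Oasl2. In 5 of them, all but Oas1g, the 3 white adipose arrays lay below all 3 non-adipose arrays, as they did for 3.97% of all genes. The groups were apart in the higher direction for 3.34% of all genes and for no member, and in either direction for 7.31%. None of the members passed the test: limma called 0 of 22180 genes (0%) between the sites at a Benjamini-Hochberg adjusted p of 0.05, and the members' adjusted p ran from 0.936 to 0.996. At an unadjusted limma p under 0.05 were 6 members, all lower, against 2.13% of all genes lower, 1.66% higher and 3.79% in either direction. The median difference over the 7 members was -0.53, beside a median of -0.00043 over all genes tested. The members' values share the 6 arrays and moved together, so these counts are not independent of each other.

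**Figure D1:**
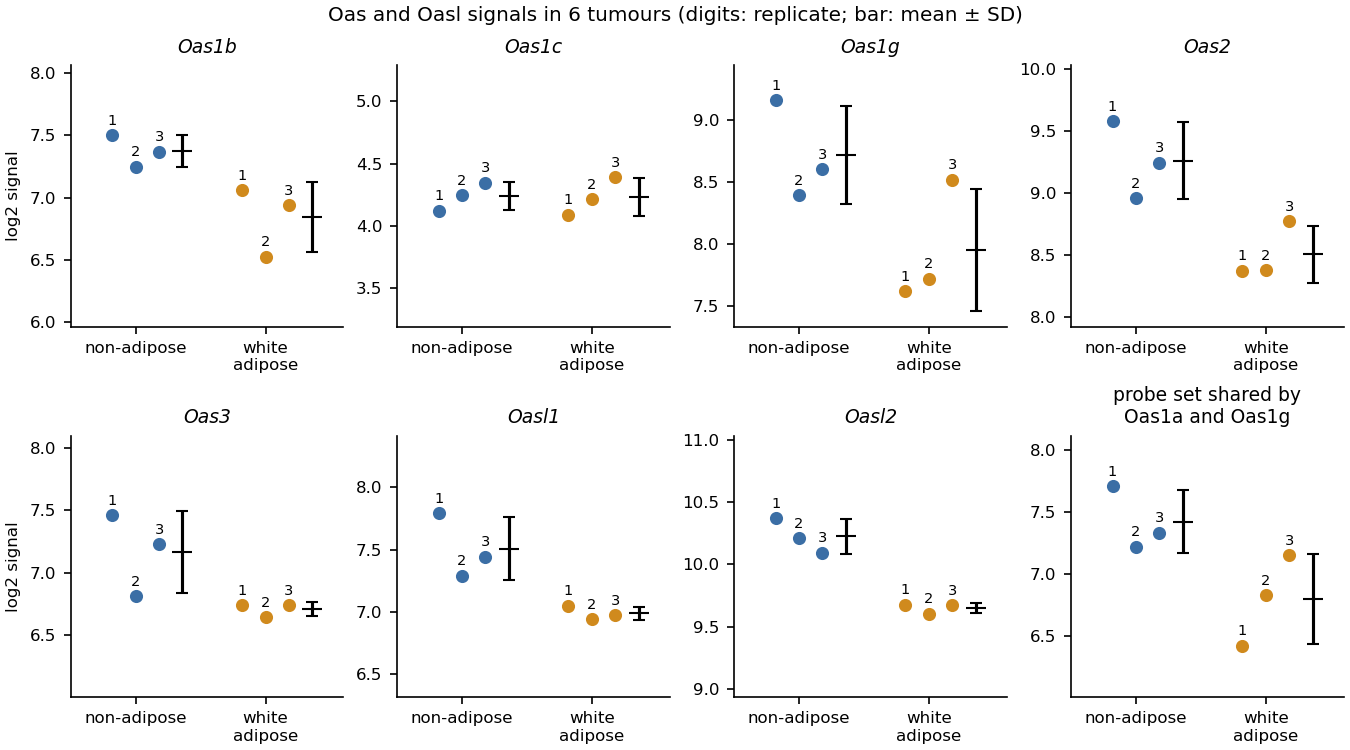
Log2 signal of the 7 measured members and of the probe set shared by Oas1a and Oas1g, 1 point per tumour (blue, non-adipose; orange, white adipose), with the replicate number above each point and the group mean ± SD (n = 3) beside it. The vertical axes span equal log2 ranges but start at different levels; Oas1c is flat near 4.2, and the white adipose points of Oas3, Oasl1 and Oasl2 lie close together.

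Oas1g and Oas1a encode the small synthetase form, a single catalytic unit. Oas1g read 9.15, 8.39 and 8.60 in non-adipose replicates 1, 2 and 3, and 7.62, 7.72 and 8.52 in white adipose replicates 1, 2 and 3. White adipose replicate 3 thus lay above non-adipose replicate 2 and the groups overlapped. The group means were 8.72 ± 0.39 (SD, n = 3) and 7.95 ± 0.49 (SD, n = 3), a difference of -0.76 (SE 0.30; limma adjusted p = 0.936). The probe set shared by Oas1a and Oas1g read 7.71, 7.22 and 7.33 in the non-adipose and 6.42, 6.83 and 7.15 in the white adipose arrays, in the same order of replicates. Here the groups did not overlap, and the difference was -0.62 (SE 0.21). Both probe sets ran in the same order within the white adipose group, with replicate 3 highest and replicate 1 lowest. The 2 genes are close copies, so the signal of either probe set cannot be assigned to 1 gene with certainty.

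Oas1b, the flavivirus resistance gene of mice, is a transcribed pseudogene in the RefSeq annotation of C57BL/6J. Its signals were 7.50, 7.25 and 7.37 in the non-adipose and 7.06, 6.52 and 6.94 in the white adipose arrays. The groups did not overlap, and white adipose replicate 2 was the lowest array. The difference was -0.53 (SE 0.15; limma adjusted p = 0.936), and it shrank to -0.37 without white adipose replicate 2.

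Oas1c, the neighbour of Oas1b, read 4.12, 4.25 and 4.35 in the non-adipose and 4.09, 4.21 and 4.39 in the white adipose arrays. The groups covered the same range, with a difference of -0.0062 (SE 0.10) and a 95% interval of -0.26 to 0.24. The sign of this value changed when non-adipose replicate 3, white adipose replicate 1 or white adipose replicate 2 was left out. With all genes sorted on mean signal Oas1c lay at percentile 16.7, so its values may be background. The other Oas1 paralogs with a probe set were dim as well, at percentiles 4.74 to 30.3. Oas1d, Oas1e and Oas1h differed by -0.11 (SE 0.11), -0.11 (SE 0.078) and -0.020 (SE 0.18), with overlapping groups. Oas1f read 4.005, 3.88 and 3.98 in the non-adipose and 5.38, 4.17 and 4.02 in the white adipose arrays. All white adipose arrays thus lay above the non-adipose arrays, replicate 3 narrowly, as they did for 3.34% of all genes. The Oas1f difference of 0.57 (SE 0.35) became 0.14 without white adipose replicate 1, the array with the high keratinocyte markers. The part of those cells in this value was not tested.

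Oas2 and Oas3 encode the larger synthetases, which repeat the catalytic fold within 1 chain. Oas2 read 9.58, 8.96 and 9.24 in the non-adipose and 8.38, 8.38 and 8.77 in the white adipose arrays. All white adipose arrays lay below the lowest non-adipose array, with a gap of 0.19 between the groups. The means were 9.26 ± 0.31 (SD, n = 3) and 8.51 ± 0.23 (SD, n = 3), and the difference was -0.75 (SE 0.19; limma adjusted p = 0.936), 1.68-fold. For Oas3 the values were 7.46, 6.81 and 7.23 in the non-adipose and 6.74, 6.64 and 6.74 in the white adipose arrays. Here non-adipose replicate 2 came within 0.072 of the highest white adipose array. The difference of -0.46 (SE 0.16) ran from -0.64 without non-adipose replicate 2 to -0.31 without non-adipose replicate 1.

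Oasl1 and Oasl2 encode OAS-like proteins with ubiquitin-like repeats; Oasl1 lacks synthetase activity and is known to block translation of the Irf7 message, and Oasl2 is an active enzyme. Oasl1 read 7.79, 7.29 and 7.44 in the non-adipose and 7.05, 6.94 and 6.97 in the white adipose arrays, a difference of -0.52 (SE 0.13). Oasl2 read 10.37, 10.21 and 10.09 in the non-adipose and 9.68, 9.60 and 9.67 in the white adipose arrays. It had the widest gap between the groups among the members (0.42) and the smallest standard error, with a difference of -0.57 (SE 0.085; limma adjusted p = 0.936). The white adipose arrays of Oasl2 spanned 0.073 and those of Oasl1 0.11, against 0.28 and 0.50 in the non-adipose arrays. The spread was narrower in the white adipose group for 4 of the 6 lower members and wider for Oas1b and Oas1g; the difference in spread was not tested. The 95% intervals of the 6 lower members overlapped one another. Members were not compared with each other by a test, so the order of their differences was not tested.

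**Figure D2:**
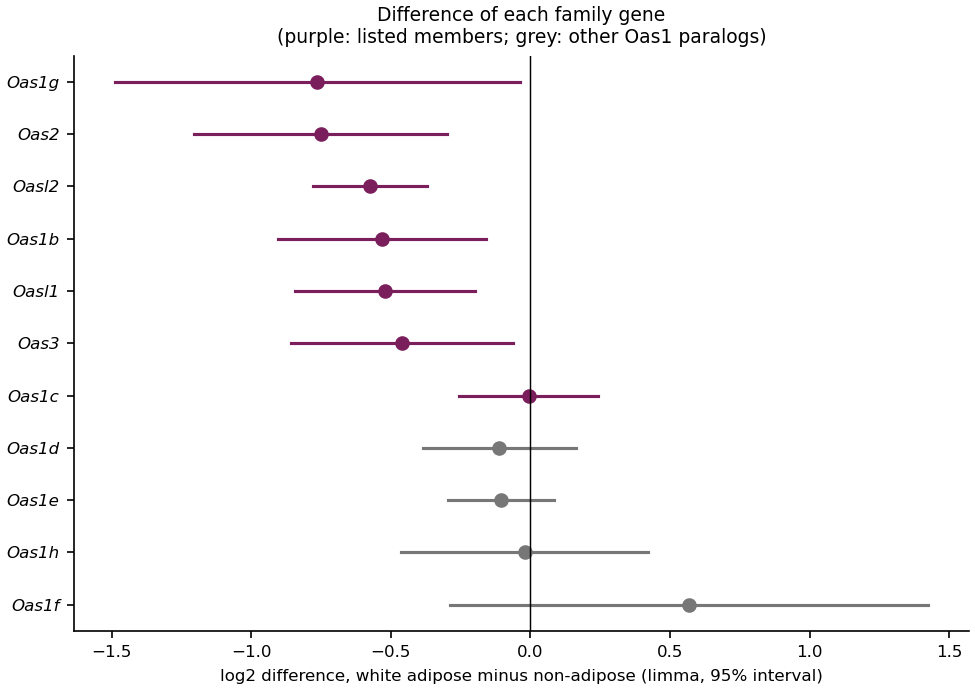
Log2 difference of each family gene, white adipose minus non-adipose, with its 95% interval from limma over 6 arrays (purple, the 7 measured members; grey, 4 other Oas1 paralogs). The points of 6 members lie between -0.76 and -0.46, Oas1c lies at 0, and the intervals are unadjusted for the number of genes.

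The 6 lower members followed 1 pattern over the arrays. All 6 were highest in non-adipose replicate 1, and 5 of them ran in the order of replicates 1, 3 and 2 within that group, Oasl2 being the exception. Their lowest array was white adipose replicate 2 for 4 members and white adipose replicate 1 for Oas1g and Oas2. Across the 6 arrays the 15 pairs of these members correlated at 0.75 to 0.96 (Pearson, median 0.87). When each value was taken as a deviation from its group mean, which removes the difference between the sites, the 15 correlations ran from 0.40 to 0.95 with a median of 0.55. All pairs share the arrays, and the 6 points of each are few, so these values describe the arrays only. The mean over the 7 measured members was 7.997, 7.59 and 7.76 in non-adipose replicates 1, 2 and 3, and 7.23, 7.15 and 7.43 in white adipose replicates 1, 2 and 3.

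**Figure D3:**
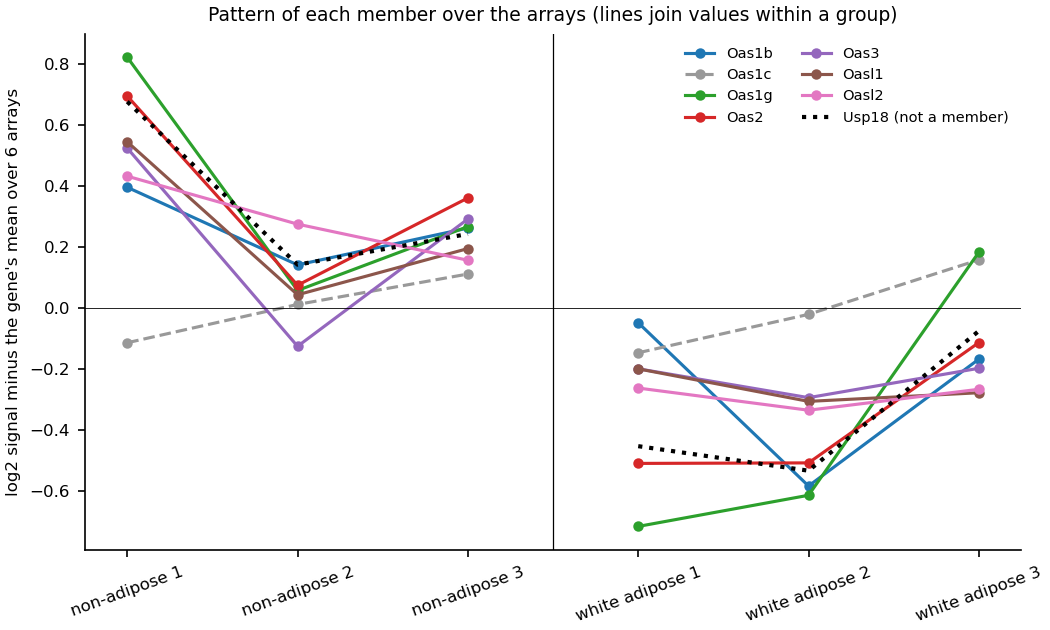
Log2 signal of each member minus its own mean over the 6 arrays, with lines joining a gene's values within a group. The 6 lower members and Usp18 (dotted) are highest in non-adipose replicate 1, whereas Oas1c (dashed grey) stays between -0.15 and 0.16.

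Among genes outside the family whose signal spanned at least 0.5 over the arrays (6063 genes), those most like the family mean by Pearson correlation over 6 arrays were Usp18 (0.993), Phf11d (0.992), Vmn1r198 (0.991), Ccl7 (0.982), Ifih1 (0.977) and Dhx58 (0.976). Usp18 encodes the protease that removes ISG15 and damps the type I interferon receptor. It read 9.72, 9.19 and 9.29 in the non-adipose and 8.60, 8.52 and 8.97 in the white adipose arrays. Ccl7 is a monocyte chemokine, and Ifih1 and Dhx58 encode the RNA sensors MDA5 and LGP2. Vmn1r198, a vomeronasal receptor gene, averaged 3.30 and may be background. These correlations share the 6 arrays and are a description. With each member standardised first, 4 of these 6 stayed among the nearest 6, and Rnf213 and Gm11563 replaced Ccl7 and Ifih1. Of the 22 listed interferon-stimulated genes that could be ranked, 9 were among the nearest 50 of the 6063 genes. That list was already known to be lower, and the correlations include the difference between the sites, so this closeness supports nothing further. Of all 26 measured genes of that list the least alike were Ifi27 (-0.27), whose signal spanned 0.33 and which was therefore not ranked, Epsti1 (-0.018) and Bst2 (0.43).

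The rest of the pathway was read by role, and none of its genes passed limma's test over all genes. Downstream of the synthetases, Abce1, an ATP-binding protein of ribosome recycling, read 11.07, 10.95 and 10.96 in the non-adipose and 10.78, 10.79 and 10.94 in the white adipose arrays, a difference of -0.16 (SE 0.073). Pde12, a phosphodiesterase that degrades oligoadenylates, differed by -0.063 (SE 0.093), with overlapping groups, and by 0.015 without white adipose replicate 2.

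The list of sensors of foreign nucleic acid also held the adaptor genes Mavs and Sting1 and Adar, an RNA-editing enzyme gene. Means were lower at 9 of its 10 genes, against 50.3% of all genes. Groups did not overlap for 5 of the 10, Adar among them, all lower, against 3.97% of all genes. At an unadjusted limma p under 0.05 were 4 of the 10, all lower, against 2.13% of all genes. Ddx58, which encodes the RNA sensor RIG-I, differed by -0.55 (SE 0.14), Eif2ak2, the kinase PKR, by -0.38 (SE 0.12) and Dhx58 by -0.42 (SE 0.13). Eif2ak2 read 9.56, 9.31 and 9.45 in the non-adipose and 8.86, 9.09 and 9.22 in the white adipose arrays, without overlap. The median of the 10 genes was -0.38.

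Of 18 type I and III interferon genes measured, 7 were lower and 11 higher on the mean in the white adipose tumours. Their median difference was 0.037. At an unadjusted limma p under 0.05 was 1 of them (Ifnab, 0.58, SE 0.22), beside 3.79% of all genes in either direction. Ifna13 and Ifna15 differed by 0.25 (SE 0.10) and 0.27 (SE 0.12). Ifnb1, which encodes interferon beta, read 4.48, 4.18 and 3.77 in the non-adipose and 3.99, 3.26 and 3.99 in the white adipose arrays. Its groups overlapped, with a difference of -0.40 (SE 0.26; -0.15 without white adipose replicate 2). Ifnab, Ifna13 and Ifnb1 lay at percentiles 15.2, 2.66 and 12.96 by mean signal and may be background. So may Ifna2, Ifna9, Ifna11, Ifna12, Ifna16 and Ifnk, at percentiles 1.98 to 19.2. The counts and the median of this list include these dim genes, so they do not show that interferon expression was unchanged. Ifng, the interferon of T and NK cells, differed by 0.11 (SE 0.15) and by -0.018 without non-adipose replicate 2.

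Receptors and their kinases lay near 0. Of 9 measured, 4 were lower and 5 higher, with a median of 0.024. At an unadjusted limma p under 0.05 were 0 of them, beside 3.79% of all genes in either direction. Tyk2, a kinase of the type I receptor, differed by 0.16 (SE 0.074), Ifngr1 by -0.12 (SE 0.058) and Jak1 by -0.061 (SE 0.062). Among the 7 transcription factor genes measured, 4 were lower and 3 higher. Against 2.13% of all genes, 3 of the 7 were lower at an unadjusted limma p under 0.05. Those were Irf7, the factor that amplifies interferon production, at -0.42 (SE 0.15), Stat2 at -0.35 (SE 0.13) and Irf2, a repressor of interferon-responsive genes, at -0.21 (SE 0.079). Stat2 read 9.22, 8.77 and 8.94 in the non-adipose and 8.65, 8.496 and 8.73 in the white adipose arrays. Irf9, its partner, differed by -0.24 (SE 0.11) with overlapping groups.

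Of the feedback inhibitors, Usp18 differed by -0.71 (SE 0.18). Socs3 differed by -0.19 (SE 0.19), and by -0.41 without non-adipose replicate 2 and -0.082 without non-adipose replicate 1. Pias1 differed by 0.026 (SE 0.070). Of the other interferon-stimulated genes, 24 of 26 had a lower mean, against 50.3% of all genes. Groups did not overlap for 14, all lower, against 3.97% of all genes. At an unadjusted limma p under 0.05 were 15, all lower, against 2.13% of all genes. The median of the 26 was -0.41, beside -0.53 for the family. Cmpk2, a nucleotide kinase, differed by -0.87 (SE 0.18), Rsad2, the antiviral protein viperin, by -1.08 (SE 0.25) and Rtp4 by -0.53 (SE 0.12). This list was known to be lower before the family was proposed.

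**Figure D4:**
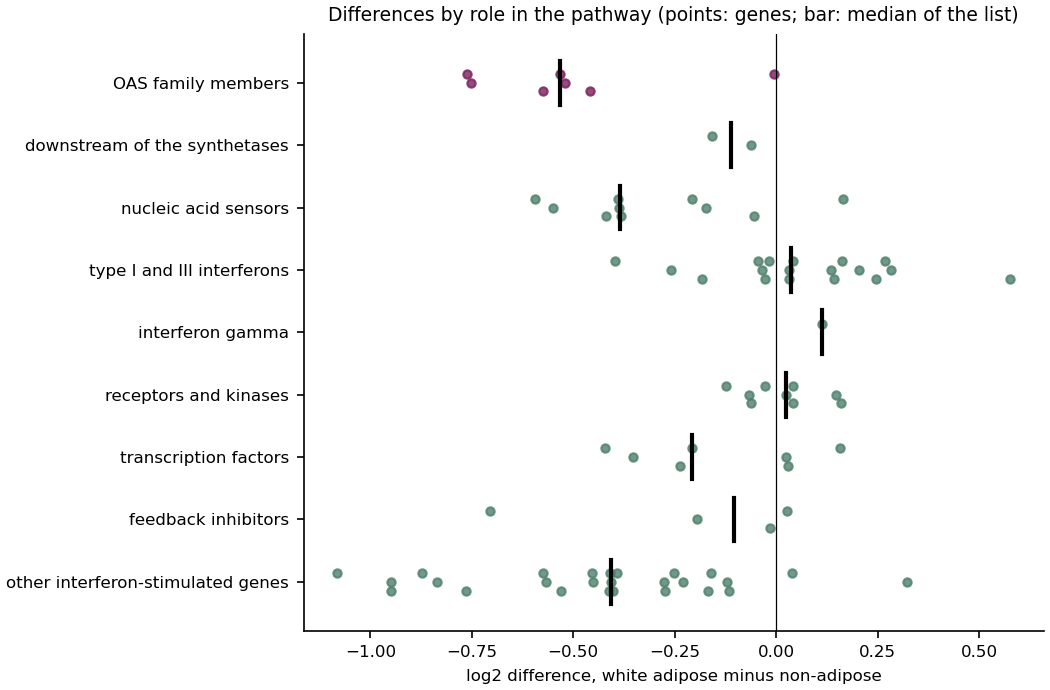
Log2 difference of each measured gene, white adipose minus non-adipose, by role in the pathway (1 point per gene; black bar, median of the list). The family, the list of nucleic acid sensors and the other interferon-stimulated genes have medians of -0.53, -0.38 and -0.41. Type I and III interferons and the receptors and kinases have medians of 0.037 and 0.024. Many of the interferon genes are dim and may be background.

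Marker lists of other cells were set beside the family mean, since in bulk tumours fewer cells of a type and less RNA per cell cannot be told apart. The macrophage list (9 of 10 markers measured) lay at 9.15 to 9.20 in the non-adipose and 9.03 to 9.07 in the white adipose arrays. Its groups did not overlap, although 6 of its 9 genes were higher and 3 lower on the mean in the white adipose tumours. Its defining genes Adgre1 and Csf1r differed by 0.0028 and 0.027 on the mean. The lower genes were Mrc1 at -0.66 and Msr1 at -0.52, whose groups overlapped, and Cd68 at -0.14, whose groups did not. Neutrophil markers (8 of 8 measured) lay at 5.56 to 6.40 in the non-adipose and 5.53 to 5.77 in the white adipose arrays. On the mean 7 of 8 were lower, against 50.3% of all genes. Their list, like the monocyte list, was highest in non-adipose replicate 1, as the family was. Ly6g, Retnlg and S100a8 were dim (percentiles 10.55, 21.2 and 29.4) and may be background. Monocyte (6 of 7 measured), plasmacytoid dendritic (8 of 8 measured) and T cell lists (7 of 9 measured) overlapped between the sites, at 6.68 to 7.21 against 6.63 to 7.10, at 5.47 to 5.51 against 5.47 to 5.84, and at 5.48 to 6.84 against 6.07 to 6.49. On the mean, 3 monocyte markers were lower and 3 higher, and 4 plasmacytoid dendritic markers were lower and 4 higher. All 7 T cell markers measured were higher, and of 7 dendritic markers measured 6 were higher and 1 lower. In the monocyte list, Chil3 differed by -0.90, with all white adipose arrays below the non-adipose arrays, as for 3.97% of all genes. Chil3 lay at percentile 24.5 by mean signal and may be background. Plac8 differed by 0.80, with overlap. The part of any of these cells in the family's values was not tested. Without white adipose replicate 1, the array high in keratinocyte markers, the median over the members was -0.59. Without non-adipose replicate 3, the array highest in muscle markers, it was -0.55. It was -0.47 without non-adipose replicate 1, high in muscle markers and highest in neutrophil and monocyte markers. That was the value nearest 0 with any 1 array left out.

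**Figure D5:**
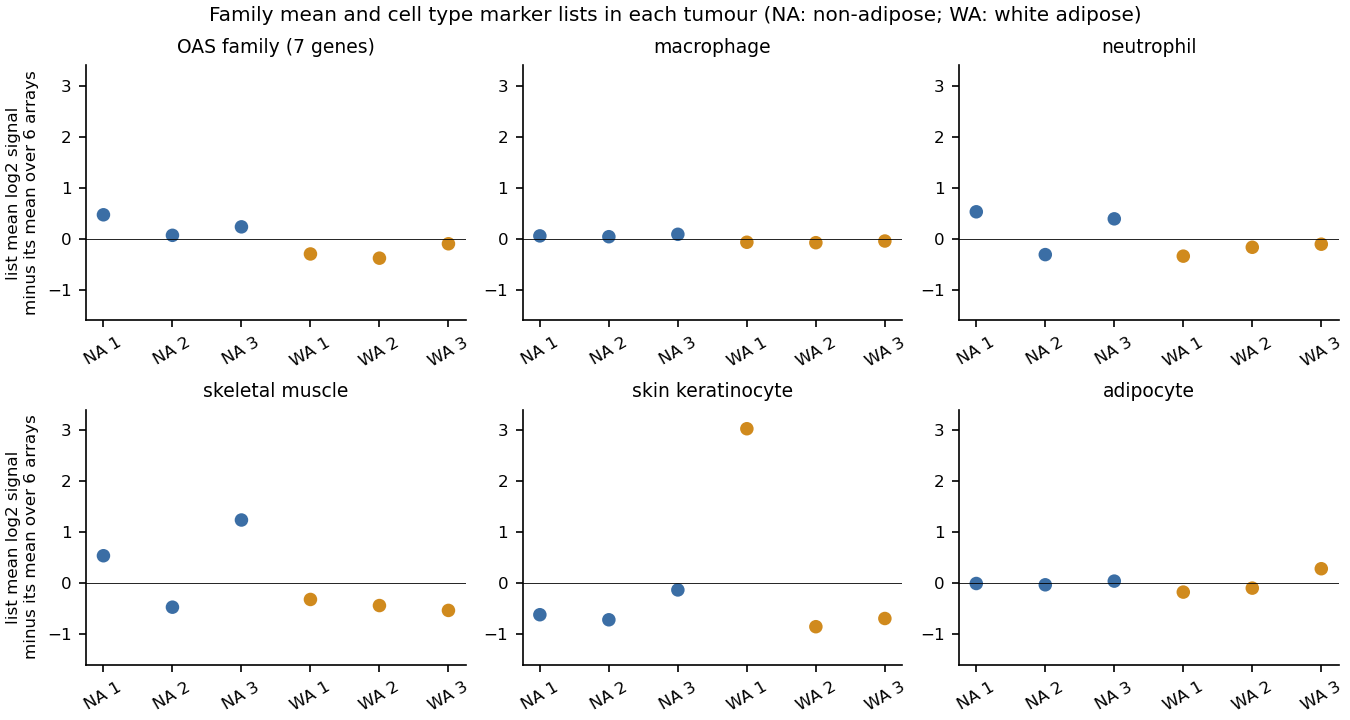
Mean log2 signal of the family and of 5 marker lists in each tumour, minus the list's own mean over the 6 arrays (blue, non-adipose; orange, white adipose). The keratinocyte list is high in white adipose replicate 1 only, muscle markers are high in non-adipose replicates 1 and 3, and adipocyte markers overlap between the sites.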

How the data were processed

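Total RNA of 6 tumours was labelled with the WT PLUS kit and hybridised to 6 arrays, per the labels' protocols. The deposited table holds log2 values of 41345 probe sets, made by the authors with Affymetrix Expression Console, per the submitters' processing notes; they ran from 0.973 to 13.6. The sources used here do not give the background correction, summarisation or normalization between arrays. Probe sets with exactly 1 symbol in the platform annotation (23521) gave 22180 genes. Levels of different probe sets were set against each other only to choose a gene's brightest and to rank genes by mean signal.

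White adipose was set against non-adipose for all genes by limma's lmFit and eBayes (limma 3.58.1, R 4.3.3; no block, no filter), with Benjamini-Hochberg adjustment over all genes and 0.05 as the threshold. The fit was tested on simulated data. The number of arrays limits precision: the median 95% half-width over all genes was 0.237. Among the members, the widest 95% interval was that of Oas1g, -1.49 to -0.037. The narrowest was that of Oasl2, -0.78 to -0.37. P-values measure the spread between 3 tumours per site. Promoter windows came from RefSeq; Biopython 1.88 aligned them. Members and lists were chosen with earlier results of these data known. Named pathway genes were the 3 with the smallest unadjusted p of each list, all genes of lists of 3 or fewer, and Ifnb1, Stat2, Irf9 and Irf7; some listed genes are not reported here. Alternatives were other scalings, a filter, probe set averaging, array weights, trended and robust eBayes, a replicate block and leaving out each array.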

Additional observations from a re-analysis of the deposited data

How the results depend on the processing

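In all 14 alternatives of the fit, limma called 0 genes, and the members' smallest adjusted p was 0.490, without white adipose replicate 1. The median difference over the members ran from -0.63 to -0.47 with 1 array left out, from non-adipose replicates 2 and 1. It was -0.53 after quantile normalization and -0.55 with array medians subtracted. Counting the shared probe set for Oas1a, and leaving out Oas1c, were chosen after seeing the data; each gave a median of -0.55. The 6 lower members kept their direction in each of these alternatives, and no difference among them moved by over 1.5 times. The number at an unadjusted p under 0.05 was 4 without non-adipose replicate 1 or 3 or white adipose replicate 1 or 2. The share of all genes past that p rose from 3.79% to 8.12% without white adipose replicate 1 and to 7.31% with array weights. The share of all genes with white adipose arrays below all non-adipose arrays, 3.97% over 6 arrays, was 5.9% after quantile normalization and 7.07% with array medians subtracted. With 1 array left out it ran from 7.42% to 12.1% (without white adipose replicate 1; 10.1% without non-adipose replicate 3), and 5 or 6 members lay apart. Differences near 0 changed sign. Oas1c was at 0.056 with array weights, and at 0.048, 0.065 and 0.0026 without non-adipose replicate 3, white adipose replicate 1 and white adipose replicate 2 (range with 1 array left out -0.087 to 0.065). Oas1h was at 0.0094 with array weights, and with 1 array left out at 0.10 (non-adipose replicate 1), 0.019 (non-adipose replicate 2) and 0.084 (white adipose replicate 1; range -0.19 to 0.10). Ifng was at -0.018 without non-adipose replicate 2 (range -0.018 to 0.22), and Pde12 at 0.015 without white adipose replicate 2 (range -0.15 to 0.015). Pias1 was at -0.0052 and -0.0077 without non-adipose replicate 3 and white adipose replicate 3 (range -0.0077 to 0.072). The cause was not tested. Replicate numbers are shared by the groups, but the labels do not say that they pair tumours. Same-numbered arrays deviated together at correlations of 0.14, 0.064 and 0.064, and differently numbered arrays at -0.18 to 0.086. These values do not settle whether the numbers are pairs, so the replicate block was an alternative only. With the replicate block 0 genes were called, 1081 genes were at an unadjusted p under 0.05 instead of 841, and the median over the members was again -0.53. Not every array correlated best with its own number.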
